A study of Mus musculus with 12 samples.

Results

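The 35 genes described here are type I interferon-stimulated genes, taken by name from the count table of mouse hearts as antiviral effectors and transcription factors of the STAT and IRF families. All 35 had a row among the table's 54751 features, and the row of highest mean was used where a symbol had several. A mean of at least 10 normalised counts over the 6 libraries was reached by 32 of them, and 18250 features in all reached it and were tested. Isg15, Oas3 and Cxcl10 stayed under that mean and are given by their values alone.

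Total RNA of hearts was sequenced in 3 libraries of Rexo2 knockout mice and 3 libraries of controls, all of strain C57BL/6N and aged 52 weeks. Rexo2 encodes an oligoribonuclease that degrades very short RNAs in mitochondria and the cytosol. The knockout genotype is given as Rexo2loxP/loxP, +/Ckmm, where Ckmm is the gene of muscle creatine kinase; its promoter often serves to express Cre recombinase in heart and skeletal muscle. The control genotype is Rexo2loxP/loxP, so both groups carry the loxP-flanked alleles and the controls lack the Ckmm allele. Effects of that allele and of losing Rexo2 in muscle cells cannot be told apart, and other heart cells are not expected targets of a muscle promoter. No label ties a library to an animal of its own and every p-value here therefore rests on the spread among these samples, part of which may be technical. Libraries are called by their group and the number in their column name, such as control 490.

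Type I interferons are secreted antiviral cytokines that bind the receptor chains Ifnar1 and Ifnar2 on nearly every cell. The kinases Jak1 and Tyk2 then activate STAT factors, among them Stat2, which joins Irf9 in a complex that binds the interferon-stimulated response element (ISRE) in the promoters of responding genes. Many of these genes keep a basal level in the uninfected heart, and RNA or DNA that leaves mitochondria is a known trigger of the pathway.

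The promoter sequences below hold letters that match the core of the ISRE, and they come from 6 tested members of high mean level. RefSeq promoter windows of build GRCm38.p6, from 250 bases before to 50 bases after a gene's start, were matched for 27 of the 35 members by symbol. Mx1, Mx2, Rtp4, Parp9, Parp14, Ifi27l2a, Usp18 and Oas2 were not matched. The ISRE core was searched as GAAANNGAAA on both strands, where N is any base. It was present in 12 of the 27 members, or 44.4%, and in 1079 of 27025 genes of the whole promoter table, or 3.99%. The gamma-activated site searched as TTCNNNGAA, whose letters read alike on both strands, was present in 5 of the 27 members, or 18.5%, and in 9.55% of all genes. In Bst2 the match of that second motif overlapped an ISRE core. Capitals mark every ISRE core in a stretch around the core that lies nearest to the start and wholly upstream of it, each written 5′ to 3′ along the gene's strand.
Rsad2: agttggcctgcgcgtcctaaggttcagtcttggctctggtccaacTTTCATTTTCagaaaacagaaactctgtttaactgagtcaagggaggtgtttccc
Trim30a: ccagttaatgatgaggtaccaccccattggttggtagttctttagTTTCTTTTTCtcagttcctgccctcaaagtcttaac
Stat2: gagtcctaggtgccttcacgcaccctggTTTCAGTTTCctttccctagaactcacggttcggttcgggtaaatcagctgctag
Ifit3: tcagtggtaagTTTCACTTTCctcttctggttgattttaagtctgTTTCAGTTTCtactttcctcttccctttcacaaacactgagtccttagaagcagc
Ifit1: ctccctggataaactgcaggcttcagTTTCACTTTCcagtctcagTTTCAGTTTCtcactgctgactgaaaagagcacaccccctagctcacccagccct
Ddx60: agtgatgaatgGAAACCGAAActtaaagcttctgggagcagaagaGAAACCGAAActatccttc
The Rsad2 stretch is chr12:26456518-26456617 on the minus strand and the Trim30a stretch is chr7:104465194-104465274 on the minus strand. The plus-strand stretches are chr10:128270248-128270330 for Stat2, chr19:34583362-34583461 for Ifit3, chr19:34640759-34640858 for Ifit1 and chr8:61928023-61928086 for Ddx60. The windows of Ifit3 and Ddx60 were set on starts that lie inside the gene's annotated span, and distances refer to those starts. The Ifit3 stretch therefore falls within the gene span chr19:34583119-34588982. Ifit3, Ifit1 and Ddx60 each show 2 cores. In Ddx60 both read GAAACCGAAA, the nearer one 19 to 10 bases before the start. In Stat2 the core lay 222 to 213 bases before the start, the farthest of the 6. Isg15 held 3 overlapping cores between 78 and 57 bases before its start. Oas1a held 2 overlapping cores between 20 and 5 bases before the start, and Oas3, Cxcl10, Ifit3b and Bst2 made up the other members with a core. A match describes letters in a window and says nothing of whether a factor binds there.

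**Figure D1:**
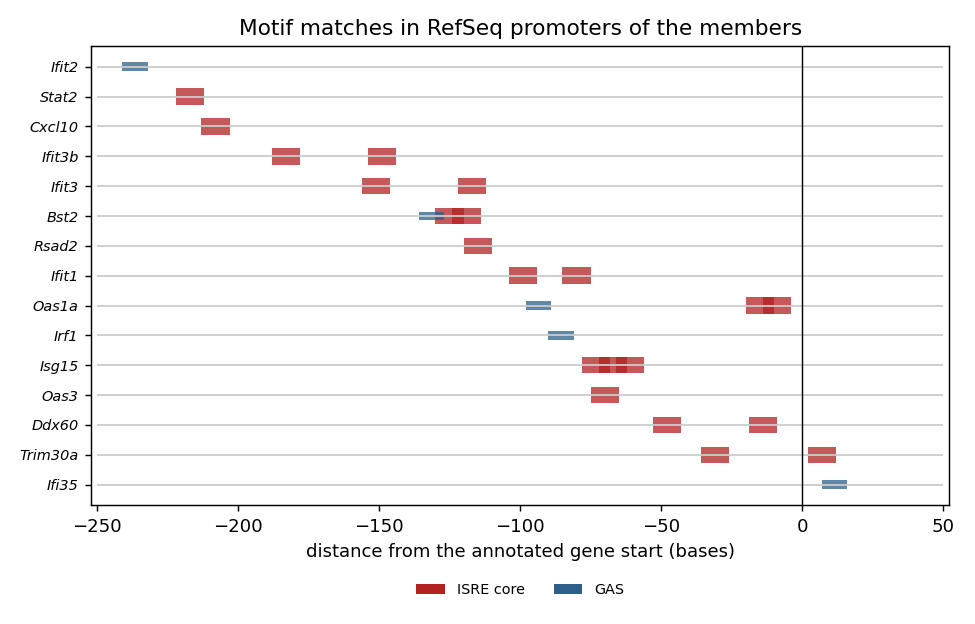
Positions of ISRE cores and gamma-activated sites in the promoter windows of the members that hold a match; the x axis is the distance from the gene's start in bases and each row is a member, red boxes are ISRE cores and blue boxes gamma-activated sites. The 2 cores of Trim30a come from windows of 2 annotated starts. ISRE cores lay between 222 bases before and 11 bases after the start.

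The libraries held between 41979163 and 49722049 reads in knockouts and between 43561069 and 50764023 reads in controls, of which 71.6 ± 0.229% and 69.6 ± 0.345% were from mitochondrial DNA (SD, n = 3 each). On the first principal component of all tested features, which held 26.4% of the variance, control 490 stood apart at -30.1 and the other libraries lay between -5.63 and 16.7. On the second, which held 22.5%, knockout 492 lay at -25.5 and knockout 501 at 25.9, with the other libraries between -2.47 and 2.64. Rexo2 itself had 274, 288 and 314 normalised counts in knockout 492, 499 and 501, against 329.7, 368 and 293 in control 490, 498 and 502. Those groups overlapped, and the log2 fold change was -0.17 (limma, adjusted p = 1.00). A count over the whole gene in a whole heart includes cells without Cre and any exons that were not deleted, so it does not check the labels. Markers of heart muscle cells were high in every library, with a summed level of 564592 to 608080 normalised counts in knockouts and 570081 to 620394 in controls.

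No interferon-stimulated gene differed between genotypes after adjustment over all features. limma on log2(normalised count + 1) with Benjamini-Hochberg adjustment gave every one of the 32 tested members an adjusted p of 1.00, so 0 were higher and 0 were lower in knockouts at 0.05. edgeR on the recovered reads also called 0 members. DESeq2 on those reads called 0 too, but it gave no adjusted p for many members, Ifit3 among them, and could not call those. At an unadjusted p under 0.05 in the higher direction, edgeR had 4 of the 32, against 1.82% of all features, and DESeq2 had 3, against 0.641%. Across all 18250 features, 0% were called higher and 0.0219% lower. Without adjustment, at p under 0.05, 4 of the 32 members (12.5%) were higher in knockouts, against 1.72% of all features, and 0 were lower, against 1.98% of all features. Those 4 were Rsad2, Parp14, Ifit3 and Parp9. In none of the 32 did every knockout library lie above every control library, or below, which 4.61% and 4.9% of all features did.

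The log2 fold changes of the members were mostly positive and small. The log2 fold change was above 0 in 29 of the 32 members, against 50.2% of all features, and its median was 0.12, against 0.00056 over all features. It ran from -0.33 in Mx2 to 0.42 in Rsad2. Mx2, Ifi35 and Usp18 were the 3 members below 0. The size of this shift depended on single libraries. Without control 490 the median was 0.06 and 22 of 32 were above 0. In that fit 2 members had an unadjusted limma p under 0.05 in the higher direction, against 2.14% of all features. Other libraries moved that number up: it was 8 without knockout 501, against 1.92% of all features, and 6 without control 502, against 1.81%. With library totals made equal, which moved the median of all features to -0.07, the members' median was 0.05 and 22 of 32 were above 0. The members are read from the same 6 libraries and are not separate observations of the genotypes.

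**Figure D2:**
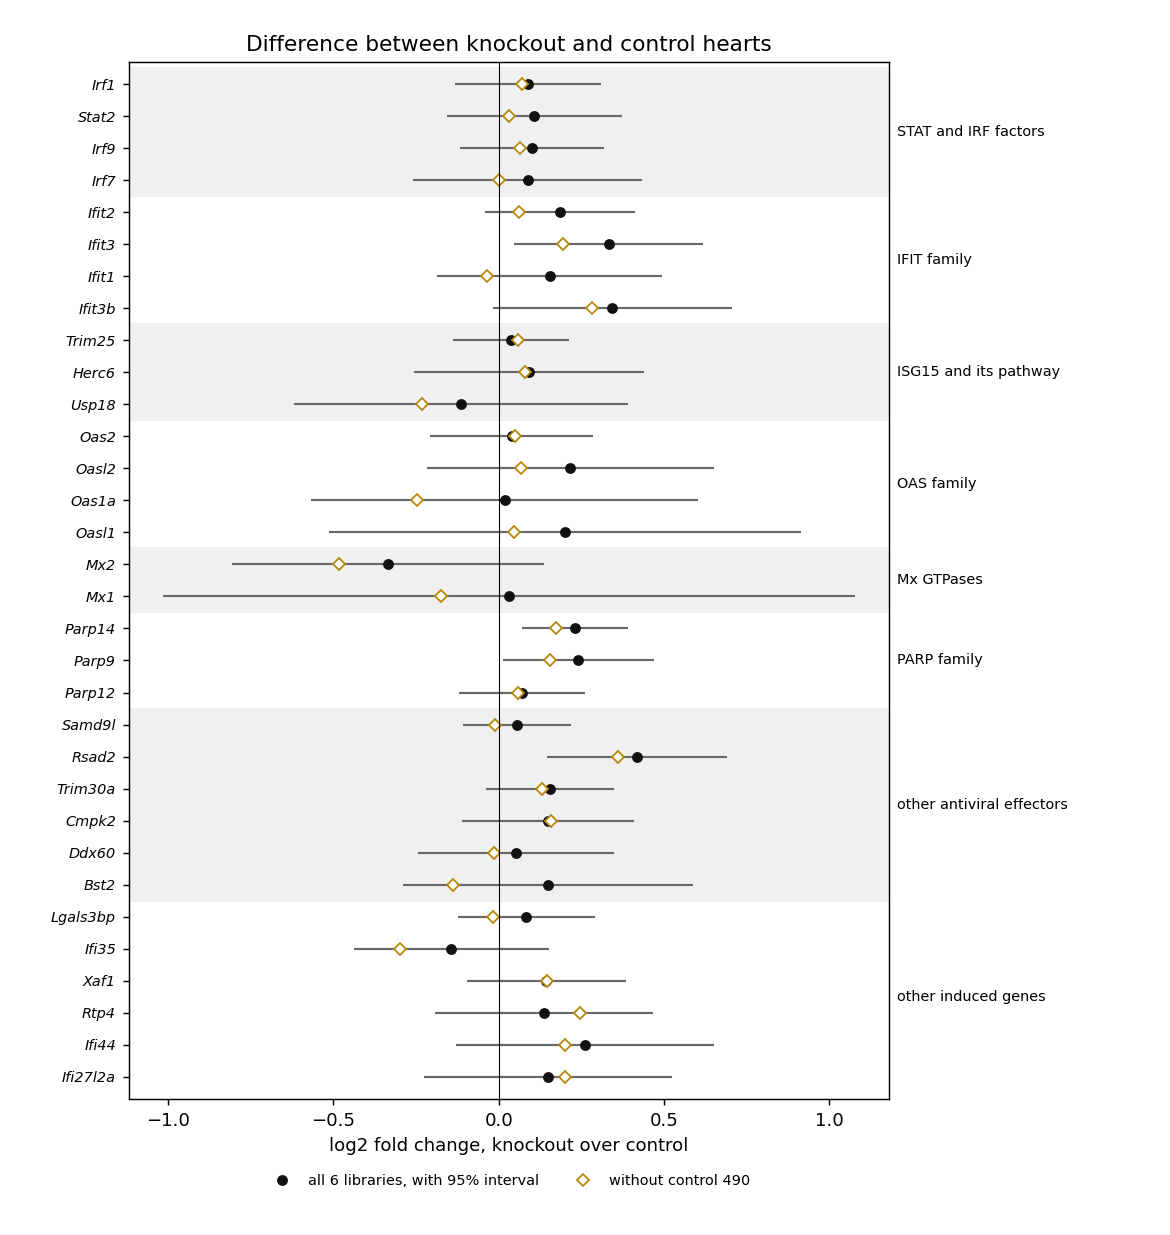
log2 fold changes of the 32 tested members, knockout over control, with 95% limma intervals (filled points and bars) and again without control 490 (open diamonds), grouped by role; the x axis is the difference in log2(normalised count + 1). With all libraries, intervals lay wholly above 0 in 4 members (Rsad2, Parp14, Ifit3 and Parp9), and every adjusted p was 1.00.

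Among the transcription factors, the interferon-activated complex is built from Stat2 and Irf9, while Irf7 amplifies production of interferon and Irf1 also answers interferon gamma. Stat2 had 311, 327 and 235 normalised counts in knockout 492, 499 and 501, against 240.4, 276 and 287 in control 490, 498 and 502. The lowest Stat2 value thus came from a knockout, knockout 501, and the groups overlapped fully. Irf9 had 312, 260.4 and 292 in the knockouts in the same order, against 255, 255 and 296 in the controls. Irf1 had 442, 389 and 328 in the knockouts, against 352, 379 and 352 in the controls, with both the highest and the lowest value in knockouts. Irf7 had 135, 151 and 107 in the knockouts, against 108, 113 and 149.6 in the controls. For Irf7, knockout 501 and control 490 were low while knockout 499 and control 502 were high. The log2 fold changes of the 4 factors lay between 0.09 and 0.11 and none had an unadjusted p under 0.05. The limma intervals were -0.16 to 0.37 for Stat2, -0.12 to 0.32 for Irf9, -0.13 to 0.31 for Irf1 and -0.26 to 0.44 for Irf7, each of which includes 0. Stat2 overlaps the gene Apof, and since the sources used here do not say whether counting used strand, reads of overlapping genes may be shared.

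The IFIT family, tetratricopeptide-repeat proteins of which Ifit1 binds viral RNA that lacks a host cap, had log2 fold changes above 0 in all 4 members. Ifit3 had 239, 237 and 205 normalised counts in knockout 492, 499 and 501, against 148, 180.5 and 217 in control 490, 498 and 502. Control 502 lay above knockout 501, so the groups overlapped by 1 pair of libraries. Ifit3 averaged 227 ± 18.9 in knockouts and 182 ± 34.2 in controls (SD, n = 3 each), a log2 fold change of 0.33 ± 0.13 (SE, limma, unadjusted p = 0.0260, adjusted p = 1.00). Without control 490 it was 0.20, with an unadjusted limma p of 0.139. Ifit3b, a near copy of Ifit3 whose reads cannot surely be split from it, had 115, 149 and 108 in the knockouts, against 88.5, 84.6 and 120.1 in the controls. Its log2 fold change was 0.34 and the limma interval reached from -0.02 to 0.71. Here too control 502 alone reached the knockout range.

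Ifit2 and Ifit1 showed the order of controls seen in Ifit3, with smaller differences. Ifit2 had 453, 511 and 491 normalised counts in the knockouts, against 357, 437 and 494 in the controls. Ifit1 had 148, 168 and 152 in the knockouts, against 107, 145 and 176 in the controls, where the highest and the lowest of the 6 values were both controls. The log2 fold changes were 0.19 for Ifit2 and 0.15 for Ifit1, and without control 490 they were 0.06 and -0.04. These genes lie within one stretch of chromosome 19 (Ifit2 chr19:34550550-34576534, Ifit3 chr19:34583119-34588982, Ifit3b chr19:34607530-34613403, Ifit1 chr19:34640889-34650009, GRCm38), with the span of Ifit1bl1 covering Ifit3b and Ifit1.

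Isg15, the ubiquitin-like protein that is joined to targets during an interferon response, was close to the limit of what these libraries resolve. It had 11.8, 9.47 and 10.2 normalised counts in knockout 492, 499 and 501, against 8.94, 6.58 and 12.2 in control 490, 498 and 502. The counting error alone gave a coefficient of variation of 32.4%, above the 20.9% seen between libraries. The spread seen thus lay within counting error, and small differences could not be resolved at this depth. Usp18, the protease that removes Isg15 and restrains the receptor, had 39.7, 28.4 and 38.4 in the knockouts, against 32.2, 36.7 and 46.8 in the controls. Herc6, the ligase that attaches Isg15 in mice, had 202, 213 and 129.7 in the knockouts, against 164, 179 and 158 in the controls. Knockout 501 held the lowest Herc6 value of all and the other knockouts the highest. Trim25, a ubiquitin ligase of the RNA-sensing pathway, had 568, 608 and 678 in the knockouts, against 619, 628 and 557 in the controls, with no group on one side. The log2 fold changes were -0.11 for Usp18, 0.09 for Herc6 and 0.04 for Trim25. Among conjugation partners of Isg15 outside the members (Uba7, Ube2l6 and Arih1), 0 of 3 passed an unadjusted limma p of 0.05 in either direction. Over all features 1.72% were higher and 1.98% lower at that p, so 0 of 3 is near the general share. The median log2 fold change of the 3 was 0.01.

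The OAS family includes the enzymes that make the messenger activating RNase L, and the related Oasl proteins. No OAS gene kept the genotypes apart. Oasl2 had 263, 153 and 151 normalised counts in knockout 492, 499 and 501, against 128, 152 and 199 in control 490, 498 and 502. Knockout 492 held by far the highest value, and the log2 fold change of 0.22 was -0.05 without that library. Oas2 had 199.7, 225 and 273 in the knockouts, against 228, 223 and 223 in the controls, whose spread was the narrowest in the set at a coefficient of variation of 1.29%. Oas1a had 37.6, 38.8 and 34.97 in the knockouts, against 25.0, 56.4 and 34.6 in the controls. Oas1a was the reverse case, with the knockouts close together and the controls at both extremes. Oasl1 had 33.3, 33.1 and 23.7 in the knockouts, against 20.6, 17.9 and 45.8 in the controls. Oas3, at 5.37, 17.0 and 11.3 in the knockouts and 2.68, 7.52 and 10.2 in the controls, was under the mean for testing. Control 490's Oas3 value is worth 3 reads. Oas1a, Oas2 and Oas3 sit together on chromosome 5, as do Oasl1 and Oasl2, and Oas1a has close paralogs, so its counts are uncertain.

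Rsad2 was the member of largest positive difference. It encodes viperin, which makes a chain-terminating nucleotide from CTP, and lies at chr12:26442743-26456452 with Cmpk2, a mitochondrial nucleotide kinase, 12.7 kb away. Rsad2 had 555, 463 and 375 normalised counts in knockout 492, 499 and 501, against 316, 325 and 391 in control 490, 498 and 502. Only control 502 exceeded a knockout, knockout 501. Rsad2 averaged 464 ± 90.2 in knockouts and 344 ± 40.6 in controls (SD, n = 3 each), a log2 fold change of 0.42 whose 95% interval was 0.15 to 0.69 (limma, unadjusted p = 0.00529, adjusted p = 1.00). Without control 490 the log2 fold change was 0.36 (limma, unadjusted p = 0.0167). The authors' deposited table gave 0.43 with an adjusted p of 0.274, the smallest among the 12 members for which it gives one. That table called 0.053% of its 7550 features with an adjusted p higher in knockouts, and 0 of those 12 members. Cmpk2, beside it, averaged 195 ± 17.9 in knockouts and 176 ± 21.6 in controls, with a log2 fold change of 0.15.

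The PARP members add ADP-ribose to proteins or sense it, and Parp9 and Parp14 lie near each other on chromosome 16. Parp14 had 1054, 1059 and 939.7 normalised counts in knockout 492, 499 and 501, against 799, 859 and 944 in control 490, 498 and 502. Control 502 lay above knockout 501 by a few counts, which was the only overlap. Parp14 averaged 1018 ± 67.6 in knockouts and 867 ± 73.1 in controls (SD, n = 3 each), a log2 fold change of 0.23 ± 0.07 (SE, limma, unadjusted p = 0.00810, adjusted p = 1.00). It was 0.17 without control 490, at an unadjusted limma p of 0.0385. Parp9 had 397, 453 and 367 in the knockouts, against 303, 392 and 336 in the controls, and only control 498 reached into the knockout range. The log2 fold change was 0.24 ± 0.11 (SE, limma, unadjusted p = 0.0407, adjusted p = 1.00), and without control 490 it was 0.15 at a p of 0.171. Parp9 overlaps Dtx3l, its partner ubiquitin ligase, whose levels were 650.5, 647 and 646 in the knockouts and 556, 642 and 607 in the controls. Dtx3l was chosen after its values were seen, for this overlap. Parp12 averaged 377 ± 35.8 in knockouts and 359 ± 14.7 in controls, a log2 fold change of 0.07.

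The Mx genes encode dynamin-like GTPases that block viral replication, and the RefSeq annotation lists both mouse genes as transcribed pseudogenes; most inbred strains carry defective Mx1 alleles. Their values are given for their spread, a choice made after seeing them. Mx1 had 26.8, 31.2 and 9.03 normalised counts in knockout 492, 499 and 501, against 14.3, 12.2 and 40.7 in control 490, 498 and 502. The highest library held 4.51 times the lowest, and each group contained both high and low libraries. Mx2 had 42.9, 41.7 and 31.6 in the knockouts, against 39.3, 56.4 and 51.9 in the controls. The log2 fold change of Mx2 was -0.33, and its limma interval spanned -0.81 to 0.14.

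The remaining antiviral effectors had log2 fold changes slightly above 0, which for Samd9l and Ddx60 fell below 0 with library totals made equal. Bst2, or tetherin, which holds budding virus at the membrane, averaged 109.9 ± 7.40 normalised counts in knockouts and 103 ± 32.3 in controls. Its control 490 value of 66.1 was the lowest, and the log2 fold change of 0.15 was -0.14 without that library. Trim30a, a TRIM protein with a near copy in Trim30d, averaged 388 ± 29.7 in knockouts and 348 ± 27.1 in controls, a log2 fold change of 0.16. Samd9l, an antiviral growth regulator, averaged 743 ± 48.9 in knockouts and 716 ± 55.3 in controls, a log2 fold change of 0.05. Ddx60, a helicase, averaged 150.3 ± 22.4 in knockouts and 144 ± 15.7 in controls, a log2 fold change of 0.05.

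Other induced members had log2 fold changes of either sign. Ifi44 averaged 88.2 ± 19.7 normalised counts in knockouts and 72.3 ± 6.12 in controls, a log2 fold change of 0.26. The apoptosis factor Xaf1 averaged 189.6 ± 20.3 in knockouts and 171 ± 3.58 in controls, a log2 fold change of 0.14. Ifi27l2a, Rtp4 and the secreted glycoprotein Lgals3bp had log2 fold changes of 0.15, 0.14 and 0.08. Ifi27l2a overlaps Ifi27, Rtp4 overlaps Masp1 and Cxcl10 overlaps Art3, so reads may be shared there too. Ifi35 averaged 187 ± 19.7 in knockouts and 208 ± 37.4 in controls, and its log2 fold change of -0.14 became -0.30 without control 490 (limma, unadjusted p = 0.0298). Cxcl10, the chemokine that attracts T cells, had 5.37, 8.52 and 2.26 in knockout 492, 499 and 501, against 1.79, 16.0 and 12.2 in control 490, 498 and 502. Its counting error alone gave a coefficient of variation of 49.2%.

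**Figure D3:**
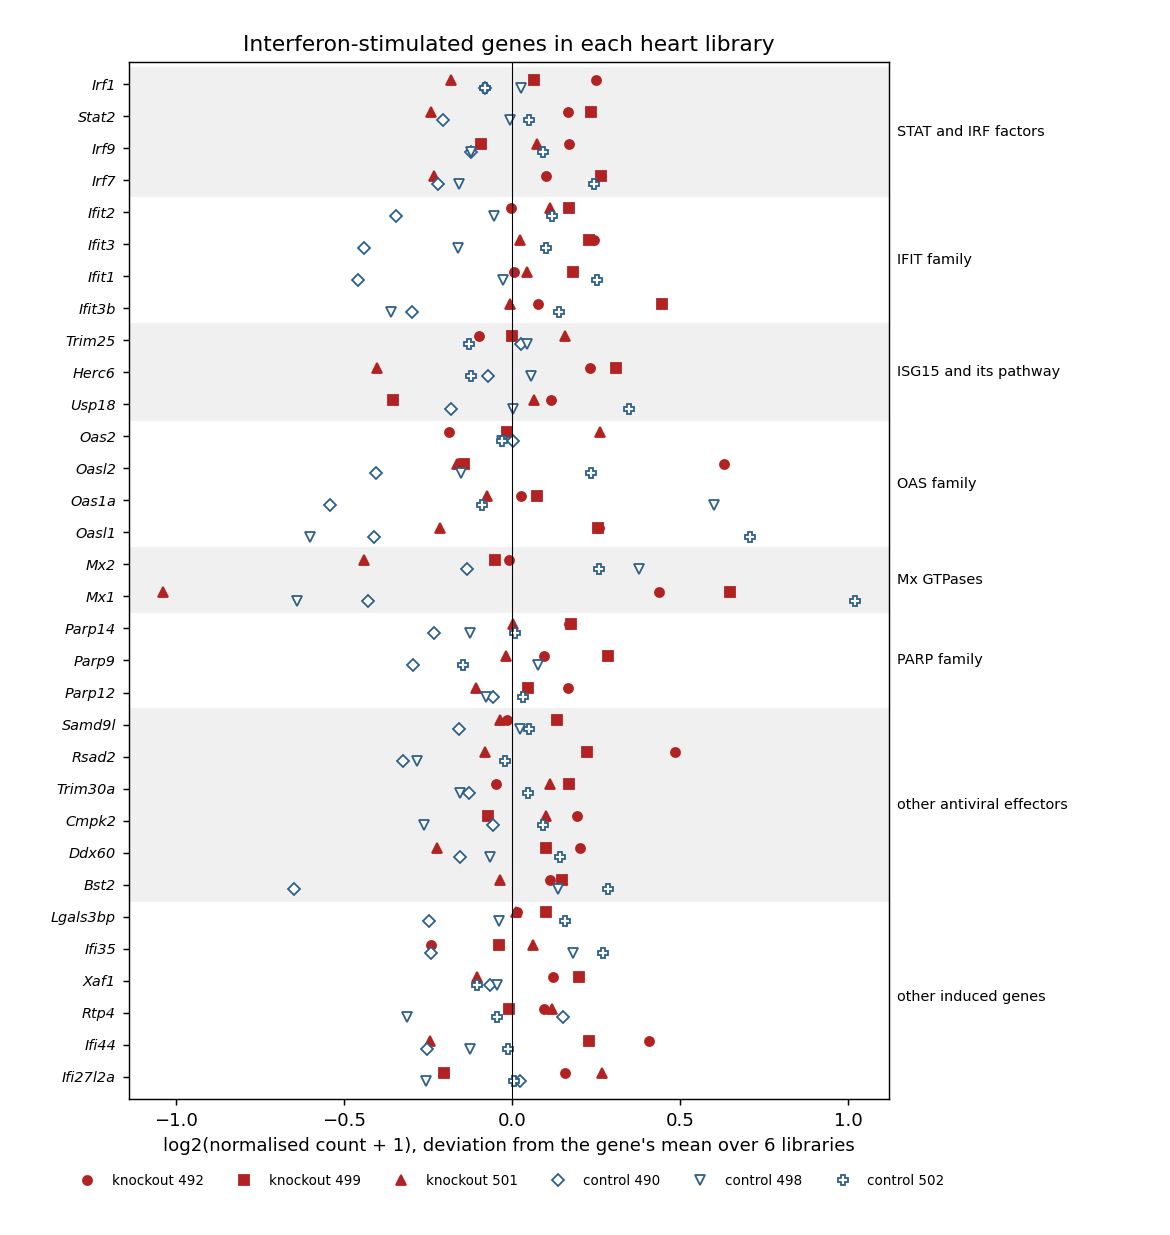
Each tested member in each library, as log2(normalised count + 1) minus the member's mean over the 6 libraries on the x axis, with members in rows grouped by role; filled symbols are knockouts and open symbols controls. Control 490 was lowest in 14 of the 32 members, and in no row do the filled and open symbols separate.

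Taken as a mean over the members, libraries differed more within a genotype than between genotypes. The mean deviation of the 32 members from their own means, on the log2 scale, was 0.14 in knockout 492, 0.12 in knockout 499 and -0.08 in knockout 501. In the controls it was -0.22 in control 490, -0.08 in control 498 and 0.12 in control 502. Control 502 therefore sat with the higher knockouts and knockout 501 with control 498. The knockout mean minus the control mean was 0.12, below the pooled within-group SD of 0.15, and it was 0.04 without control 490. Leaving out knockout 501, the lowest knockout, or control 502, the highest control, would instead widen that difference. Control 490 held the lowest value of 14 of the 32 members and the highest of 1, while over all features 18.3% were lowest in that library. Knockout 499 held the highest value of 10 members, knockout 492 of 9 and control 502 of 7. Over all features, 15.8%, 17.4% and 16.4% were highest in those libraries, in that order.

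**Figure D4:**
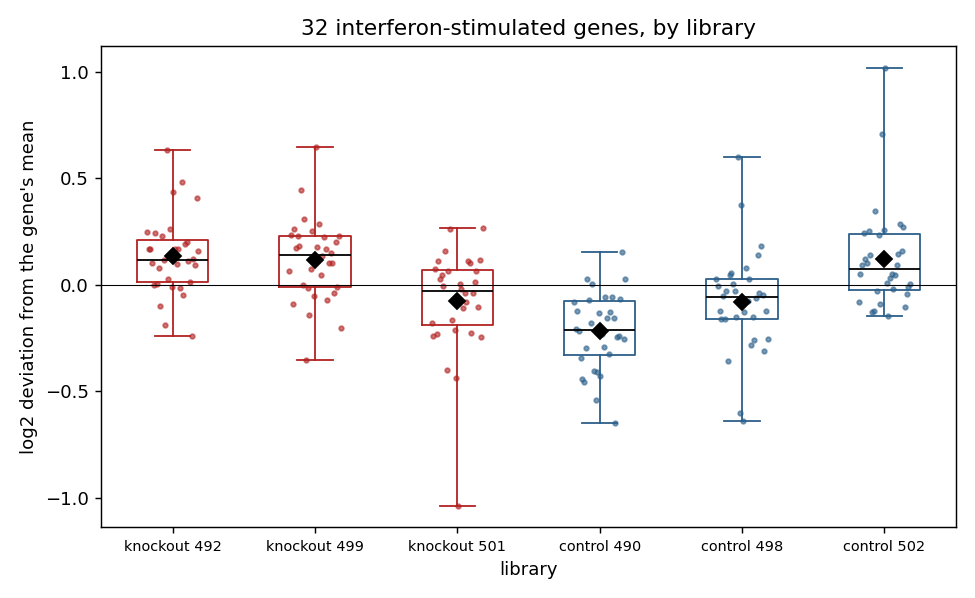
Library by library view of the 32 tested members, with knockouts left of controls, with the log2 deviation from each member's own mean on the y axis; points are members, boxes the quartiles, lines the medians, whiskers the range and diamonds the means. The mean deviations run from -0.22 in control 490 to 0.14 in knockout 492, and the groups overlap.

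Which members separated the genotypes depended on single libraries. Without knockout 501, 10 of the 32 had both remaining knockouts above all controls (Herc6, Ifi44, Ifit3, Irf1, Parp12, Parp14, Parp9, Rsad2, Stat2 and Xaf1), against 9.41% of all features. Without control 502 the number was also 10 (Ifit1, Ifit2, Ifit3, Ifit3b, Irf9, Lgals3bp, Oasl1, Parp14, Rsad2 and Trim30a), against 9.26%. Ifit3, Parp14 and Rsad2 stood in both lists. Leaving out knockout 492, knockout 499, control 490 or control 498 gave between 1 and 2. The shares of all features were 10.6%, 8.81%, 9.5% and 8.98% in that order. Without control 490, 2 of 32 (Ifi35 and Mx2) were lower in every knockout, against 10.2% of all features. Among 32 members, counts of 1 or 2 are near these shares and say nothing particular of the members.

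Spread between libraries was wide for genes of this level. The coefficient of variation over the 6 libraries had a median of 14.01% in the members, from 6.72% in Samd9l to 55.8% in Mx1, against 10.3% over all features. Within knockouts the median was 10.7% against 9.36%, and within controls 12.7% against 9.09%, for members and all features. In 28 of the 32 the coefficient exceeded the median of features of like level, and in 11 it exceeded their 90th percentile: Ifit1, Ifit2, Ifit3, Ifit3b, Oasl2, Rsad2, Mx1, Stat2, Parp9, Parp14 and Herc6. Without control 490 that second number was 5, and over the other libraries left out in turn it lay between 11 and 14. The median ratio of the coefficient to the one that counting alone gives was 1.83 in members and 1.33 over all features. The lowest such ratio among the 32 tested members was 1.04.

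**Figure D5:**
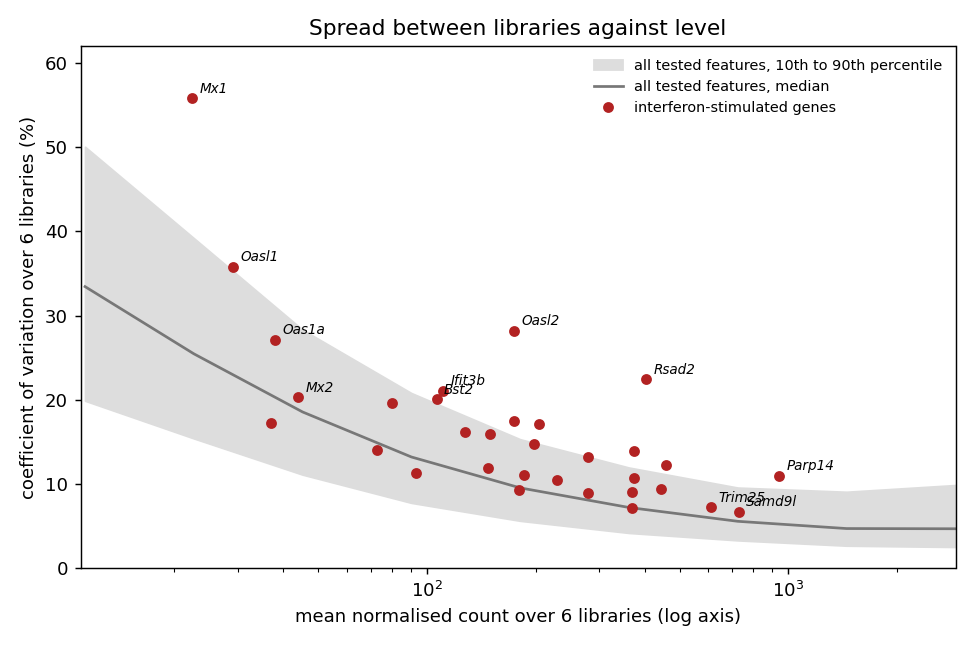
Coefficient of variation over the 6 libraries in percent (y axis) against the mean normalised count (log x axis); the grey band and line, drawn between bins of mean level, are the 10th to 90th percentile and the median of all tested features, and red points are the 32 members. In 28 members the value exceeds the median of the member's own bin and in 11 its 90th percentile.

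With 29 of the 32 tested members above 0, direction could hardly set members with an ISRE core in the promoter apart. All 9 tested members with a core had a log2 fold change above 0, with a median of 0.15, and so did 14 of the 15 tested members whose promoter held none, with a median of 0.09. No test was made of that difference. Mx1, Mx2, Rtp4, Parp9, Parp14, Ifi27l2a, Usp18 and Oas2 had no matched window and are in neither group. Of these, Mx2 and Usp18 were below 0, and Parp9 and Parp14 had an unadjusted limma p under 0.05.

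Upstream of the members, interferon ligands were at or near 0 reads. Of 21 ligand genes, 16 had 0 reads in all 6 libraries, where the limit that a count of 0 allows (3 reads) is 2.84 to 3.38 normalised counts in knockouts and 2.68 to 3.05 in controls. Ifnb1, interferon beta, had 0 reads in the 3 knockouts, against 3 in control 490 and 1 in control 502. The others with reads, Ifnab, Ifne, Ifng and Ifnz, totalled 1 to 5 reads each over the libraries. These limits cover counting error only.

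Receptors and signal carriers were well covered, and none passed an unadjusted limma p of 0.05. Among 6 receptor genes, 0 were higher and 0 lower at that p, against 1.72% and 1.98% of all features. In lists this short, counts of 0 here and below are near those shares. Ifnar1 had 602, 629.6 and 562 normalised counts in the knockouts, against 553, 568 and 586 in the controls. Ifnar2 had 240.4, 207 and 209 in the knockouts, against 229.6, 249 and 250.3 in the controls, and the interval of its log2 fold change, -0.15, spanned -0.37 to 0.06. Of 11 genes listed as signal carriers, which are kinases, STATs, IRFs, Crebbp and Ep300, 0 passed in either direction, with a median of 0.03. Of 15 inhibitors of the pathway, such as the SOCS and PIAS families, 0 passed in either direction and the median was -0.01.

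A wider list of 80 other interferon-stimulated genes held 71 tested genes. Of those, 10 were higher in knockouts at an unadjusted limma p of 0.05, or 14.1% against 1.72% of all features, and 0 were lower. In 8 of the 71, every knockout library lay above every control library, or 11.3% against 4.61% of all features, and 0 were called after adjustment. The median log2 fold change was 0.09, with 53 of 71 above 0, and without control 490 it was 0.05 with 42 above 0. The list was drawn up with earlier results of these data known, so its counts are a description.

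The clearest gap in that list belonged to Gm4951, with 62.3, 60.6 and 69.9 normalised counts in knockout 492, 499 and 501, against 33.1, 33.8 and 35.6 in control 490, 498 and 502. All knockouts lay well above all controls, a log2 fold change of 0.89 ± 0.19 (SE, limma, adjusted p = 0.208). Nlrc5, which drives transcription of class I antigen-presentation genes, had 273, 263 and 234 in the knockouts, against 159, 188 and 197 in the controls. Tap1, the peptide transporter of that route, had 250.1, 242 and 211 in the knockouts, against 163, 159.8 and 181 in the controls. Psmb9, an immunoproteasome subunit encoded next to Tap1 on chromosome 17, had 95.5, 91.8 and 100.4 in the knockouts, against 74.2, 58.3 and 72.2 in the controls. In all of these the knockouts lay above the controls, with log2 fold changes of 0.50, 0.48 and 0.49 and adjusted limma p of 0.293 for Nlrc5, 0.303 for Tap1 and 1.00 for Psmb9. Without control 490 the log2 fold changes were 0.41, 0.46 and 0.56. These 3 genes are also known to answer interferon gamma.

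Smaller gaps without overlap were measured for Eif2ak2, the double-stranded RNA kinase PKR, with a log2 fold change of 0.26, for Ifi204, of a DNA-sensing family, with 0.34, and for Trim12a with 0.23. Eif2ak2 had 355, 354 and 320.4 normalised counts in the knockouts, against 263, 315 and 281 in the controls. Ifi204 had 121, 135 and 127 in the knockouts, against 115, 95.9 and 92.6 in the controls. Trim12a had 357, 333 and 363 in the knockouts, against 267, 313 and 321 in the controls. In both the lowest knockout lay just above the highest control. Gvin1, a very large interferon-inducible GTPase, had 2928, 2512 and 2114 in the knockouts, against 1920.2, 1817 and 2362 in the controls, so it overlapped through control 502 as many members did. All 4 had an adjusted limma p of 1.00.

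Marker levels of immune and vessel cells were set beside those of the members. The summed level of 12 macrophage and monocyte markers was 2927 to 3204 normalised counts in knockouts and 2751 to 3039 in controls, lowest in control 490, and 12 of 12 were detected above the mean for testing. Of those, 1 was higher at an unadjusted limma p of 0.05, against 1.72% of all features. It was Adgre1, which averaged 118 ± 13.1 in knockouts and 92.0 ± 5.10 in controls. Adgre1 alone of the 12 had every knockout above every control, against 4.61% of all features. The log2 fold change was above 0 in 7 of the 12 markers, with a median of 0.04. The summed endothelial markers ran from 12035 to 12810 in knockouts and from 11693 to 13031 in controls. B cell markers summed to 117 to 152 in knockouts and 91.1 to 158 in controls, and T and NK cell markers to 37.2 to 48.3 in knockouts and 26.8 to 66.1 in controls. Of these, 1 of 5 B cell and 1 of 10 T and NK cell markers reached the mean for testing. Neutrophil markers, 1 of 5 tested, summed to 38.6 to 57.5 in knockouts and 26.3 to 40.7 in controls. Control 490 was the lowest library for the macrophage, endothelial, B cell and T and NK cell sums, as it was for the members. It was not the lowest for the neutrophil, fibroblast, smooth muscle and pericyte, or red blood cell sums, at 40.2, 8325, 24731 and 20018. Its sum for heart muscle cells, 620394, was the highest of all libraries. A low sum did not mean that every marker was low. Of the endothelial markers, only Kdr and Cdh5 were lowest in control 490. Of the macrophage and monocyte markers, Adgre1, Cd68, Csf1r, C1qa and C1qc were, and the rest were lowest elsewhere. Ighm made up most of the B cell sum and was lowest in control 490, while Cd79b was highest there. Most T and NK cell markers had means under 10. The part of any of these cells in the members' levels was not tested. Of 5 markers of plasmacytoid dendritic cells, a strong source of interferon, 3 stayed under the mean for testing and near the worth of a few reads. Siglech averaged 1.35 in knockouts and 3.32 in controls, Ccr9 1.66 in knockouts and 0.637 in controls, and Ly6d 3.66 in knockouts and 0.950 in controls. Tcf4 and Irf8, which other cells also express, had log2 fold changes of 0.02 and 0.09. In whole-heart RNA, fewer cells of a type and less RNA per cell cannot be told apart.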

How the data were processed

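Total RNA of whole hearts was sequenced after ribosomal RNA depletion with random priming, per the labels' protocols. The deposited signal values are counts per gene that the authors normalised, per the submitters' processing notes. Those notes list DESeq2 1.22.2, R 3.5.2, featureCounts, bedtools and Bowtie2 2.3.4.1, and the builds mm10 and GRCm38, without their roles. The authors also deposited a DESeq2 table with log2 fold changes, a test score and p-value columns, which is quoted only as given. Of 54751 features, 54715 have Ensembl identifiers, 54686 of them with a symbol. When scaled to the value of a single read, 100% of the 156689 nonzero values were whole reads within 0.01. No pair of libraries within a group agreed within counting noise, so all were kept as separate samples. Libraries of RNA ends from mitochondria, 3 per group, are not analysed here.

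Values were tested as log2(value + 1), which understates changes of low genes, in limma 3.58.1 (R 4.3.3) with a trended prior, 2-sided, over 18250 features with a mean of at least 10, with Benjamini-Hochberg adjustment at 0.05. The code was tested on simulated data. Alternatives covered the pseudocount, the mean minimum, scaling, the prior, edgeR 4.0.16 and DESeq2 1.42.0 on the recovered reads, and leaving out each library. Coefficients of variation were compared within bins of mean level. Every member is named. Values per library are given for the STAT and IRF, IFIT, ISG15 and OAS roles and for members at an unadjusted p under 0.05, and from the other pathway lists for up to 8 genes at that p plus Ifnar1 and Ifnar2. A further gene that this rule names is not reported here. Members and lists were chosen with earlier results of these data known. Motifs were searched in RefSeq promoters of GRCm38.p6.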

Additional observations from a re-analysis of the deposited data

How the results depend on the processing

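Under 18 alternatives, 0 members were called in either direction. The authors' deposited table gave an adjusted p for only 12 of the 32 tested members, and DESeq2 likewise left many without one. Of 571 member values, 537 kept their sign. The 34 that did not belonged to 16 members, and the causes were not tested. With totals made equal, which shifted the median of all features by -0.07 on the log2 scale, the log2 fold change was -0.0498 for Oas1a, -0.0304 for Oas2, -0.0353 for Mx1, -0.0325 for Trim25, -0.00012 for Parp12, -0.0152 for Samd9l and -0.0179 for Ddx60. Oas1a was also at -0.0527 in edgeR and at -0.0567 in DESeq2 and the authors' deposited table. Leaving out 1 library at a time gave log2 fold changes from -0.0351 to 0.32 for Ifit1, -0.0134 to 0.20 for Irf1, -0.0212 to 0.23 for Irf7, -0.25 to 0.32 for Oas1a, -0.0495 to 0.61 for Oasl1, -0.0453 to 0.39 for Oasl2, -0.0814 to 0.14 for Oas2 and -0.29 to 0.56 for Mx1. It gave -0.23 to 0.0344 for Usp18, -0.14 to 0.33 for Bst2, -0.0313 to 0.0964 for Trim25, -0.0399 to 0.32 for Herc6, -0.0105 to 0.0939 for Samd9l, -0.0181 to 0.18 for Lgals3bp and -0.0359 to 0.18 for Ddx60. The number of members higher at an unadjusted p under 0.05 was 1 with equal totals (0.652% of all features), 1 without the trended prior (2.26%) and 2 to 8 with 1 library left out (2 without knockout 499, at 1.44%, or control 490, at 2.14%, and 8 without knockout 501, at 1.92%). The number lower was 0 to 1, the 1 without control 490, at 2.15% of all features. In alternatives added after seeing the data, leaving out 1 library gave 1 to 10 members with every knockout above every control, against 8.81% to 10.6% of all features, 0 to 2 with every knockout below, against 8.83% to 10.8%, and 5 to 14 above the 90th percentile of spread. No paired analysis was possible because the columns carry library numbers and no replicate numbers. Depth limits Isg15, Oas3 and Cxcl10, and the intervals of all but 4 of the 32 tested members include 0.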

Other observations

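The IFITM proteins block the entry of viruses at membranes, and their genes, chosen after their values were seen, are given beside the members. Ifitm3 had 453, 465 and 457 normalised counts in knockout 492, 499 and 501, against 432, 451 and 481 in control 490, 498 and 502, and a log2 fold change of 0.01. Ifitm2 averaged 251 ± 27.7 in knockouts and 277 ± 11.9 in controls (SD, n = 3 each). Ifitm1 was low, at 7.51, 19.9 and 7.90 in the knockouts and 26.8, 15.0 and 17.3 in the controls, where control 490 held the highest value, and the interval of its log2 fold change, -0.79, spanned -1.67 to 0.09. Irf2, a repressor and activator of interferon genes also chosen after its values were seen, had 331, 348 and 377 in the knockouts, against 328, 313 and 295 in the controls. The groups did not overlap, with a log2 fold change of 0.17 (limma, unadjusted p = 0.0678, adjusted p = 1.00). Irf2 was the 1 gene of the 11 listed signal carriers with every knockout above every control, against 4.61% of all features. Slfn5, of the Schlafen family, averaged 2550 ± 97.3 in knockouts and 2567 ± 153 in controls.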
